A study of Mus musculus with 23 samples.

Results

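Common myeloid progenitors (CMPs) with and without C/EBPα, the product of Cebpa, were compared on 8 of the 23 Affymetrix arrays of this mouse series, 4 from knockout and 4 from control bone marrow. The genes described are those that differed by at least 1 on the log2 scale (2-fold), whose 4 knockout arrays did not overlap the 4 control arrays, and that passed the test across all genes. Genes of the neutrophil granules, monocyte genes and immediate early genes were counted and set aside, as were predicted genes, small RNAs and receptor segments. This left 317 of 19937 measured genes, 133 higher and 184 lower in the knockout, and their size in this same contrast is what chose them.

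Knockout mice carried the interferon-inducible Mx.1-Cre transgene and floxed C/EBPa alleles. Control mice carried the same floxed alleles without Cre, although their source label calls them wt control. Both had received 3 injections of poly I:C, an RNA mimic that induces the Cre, and the cells were taken 5 days later, with no virus and no transplant. The Cre acts in every cell that responds to interferon, and the controls have no Cre, so an effect of Cre itself and of the deletion cannot be told apart. CMPs were sorted as lineage-negative, c-kit-positive, Sca1-negative, CD34-positive cells with low Fc gamma receptor II and III. The labels number the arrays of each group but do not say that each came from its own mouse, so a p-value here speaks of the spread among these 8 samples, which may be technical. Other arrays, used here for levels or as a separate comparison, hold control granulocyte-macrophage progenitors (GMPs, 3 arrays) from mice treated like the controls, and GFP-marked cells of irradiated recipients of MLL-AF9-transduced marrow. The latter are control leukaemic GMPs (L-GMPs, 4 arrays), knockout L-GMPs (3 arrays), and knockout CMPs (3 arrays) and KSL stem cells (2 arrays). The 3 knockout L-GMP arrays stand for 1 leukaemia, raised with injected vectors for IL-3 and GM-CSF.

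C/EBPα is a basic leucine zipper transcription factor that opens the granulocyte and monocyte programme as CMPs become GMPs. It is known to act on receptor genes for myeloid cytokines and on granule enzymes, and mice without it lack GMPs and neutrophils. CMPs also hold cells on the way to erythrocytes and platelets, so the sorted population is a mixture. In such bulk samples, fewer cells of a type and less RNA per cell cannot be told apart.

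The marker genes given for the experiment were read first, on every array (log2 expression). Cebpa stood at 7.64, 7.5, 7.83 and 7.19 on control arrays and at 5.51, 5.19, 5.55 and 4.99 on knockout arrays, with no overlap, as the labels have it. Elane, neutrophil elastase, was 10.45, 9.69, 10.67 and 10.93 in controls and 7.01, 4.44, 5.9 and 4.99 in the knockout, the widest spread of the 5 markers. The receptor for macrophage colony-stimulating factor, Csf1r, read 8.31, 8.33, 8.11 and 8.33 against 5.68, 4.8, 5.04 and 4.88. The monocyte and dendritic cell factor Irf8 read 8.31, 8.57, 8.64 and 8.55 against 5.83, 5.44, 5.48 and 5.41. Tox, a chromatin-associated protein of lymphocyte development, went the other way, from 5.05, 4.94, 5.15 and 5.04 in controls to 8.76, 8.83, 8.57 and 8.01 in the knockout. All 5 differed without overlap in the limma fit of the 8 arrays (Benjamini-Hochberg adjusted p between 9.55e-05 for Irf8 and 0.00233 for Elane).

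**Figure D1:**
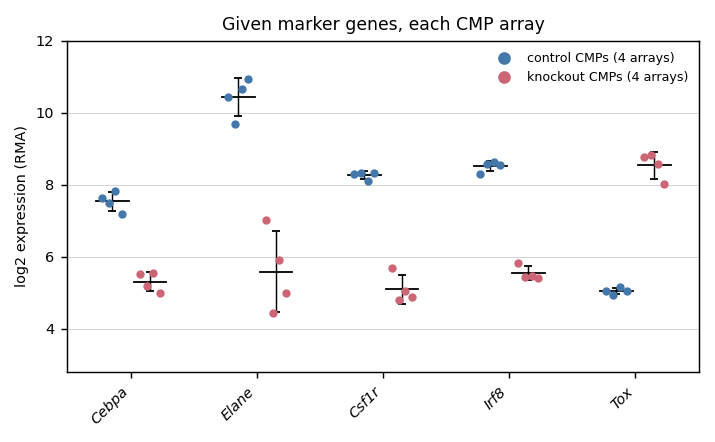
Log2 expression (RMA, vertical axis) of the 5 given marker genes on each of the 4 control (blue) and 4 knockout (red) CMP arrays; black lines are the mean and SD (n = 4). Cebpa, Elane, Csf1r and Irf8 are lower and Tox is higher on every knockout array.

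Of the genes behind the sort, Cd34 was high in both groups, at 10.77, 10.78, 10.78 and 10.62 in controls and 9.98, 10.35, 10.34 and 10.23 in the knockout, and Kit read 9.23, 9.34, 9.37 and 9.12 and 9.78, 9.69, 9.54 and 9.45. Fcgr3 overlapped between the groups (8.17, 7.26, 7.9 and 8.28 against 8.22, 8.64, 7.76 and 7.24), and Fcgr2b was 6.72, 6.44, 6.69 and 7.2 against 5.67, 5.66, 5.48 and 5.64. These genes set the gate, so their differences are not findings. Arrays correlated at 0.9913 to 0.9946 within a group and at 0.9745 to 0.9844 between control and knockout. Xist, which marks female cells, was high on 3 of 4 control arrays and on 1 of 4 knockout arrays (knockout array 4), so sex differed between the groups. Of the 317 described genes, whose direction within each sex is fixed by the lack of overlap, 209 reached 1 log2 both between the high-Xist arrays and between the low-Xist arrays.

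In all, 3220 of the 19937 genes passed (16.2%), 1480 higher (7.42%) and 1740 lower (8.73%) in knockout CMPs by limma with Benjamini-Hochberg adjustment at 0.05. The arrays did not overlap for 4215 genes (21.1%). A difference of at least 1 log2 with no overlap and a passed test was found for 357 genes (1.79%), 145 higher (0.727%) and 212 lower (1.06%). Of these, 29 lay on the lists set aside, 25 of them lower, and 11 were left out by kind. The members just inside the limit of 1 log2 were Vsir (−1.0), Septin10 (−1.0) and Gimap9 (1.001), and those just outside were Pitpnc1 (0.999), Vav3 (−0.999) and Anxa1 (−0.996). After quantile normalization of the 8 arrays 1640 genes were higher and 1561 lower, and with arrays centred on their medians 1842 and 1730, so the balance of rises and falls over all genes depends on the scaling. With high Xist as a covariate 1859 genes passed, and a fit to all 23 arrays, in which several groups from transplanted mice are noisier, called 979. Of the 317 described genes, 297 passed with the Xist covariate, 242 in the fit to all arrays, and 302 whichever single array was left out. Among the described genes named below, Mcpt8, Hdc, Ms4a2, Ak4, Csf2rb, Flt3, Trib1, Mgst2, Gpr65, Gstm1, Ptgs2, Sgk3, Pdgfrb, Il18r1, Inpp4b, Cyp11a1, Cysltr2, Rgs1, Lilr4b, Pde3b, Ccl5, Gzmb, Cpa3, Hvcn1, Tnfrsf1a, Gimap9, Nfkbie and Nfkbiz did not pass in the fit to all arrays.

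**Figure D2:**
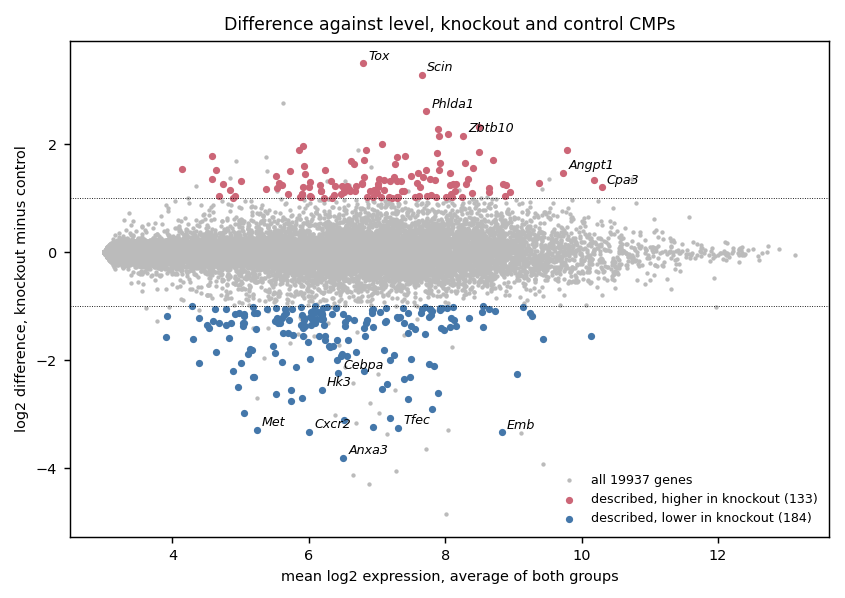
Log2 difference (knockout minus control, n = 4 arrays each) of every gene against its mean log2 expression over both groups. The 133 described rises are red and the 184 described falls are blue, dotted lines mark 1 log2, and grey points beyond them are genes set aside or not meeting every condition.

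In 11 lists of surface, signalling, metabolic and chromatin genes, 1008 measured members were counted in both directions, whatever their size of change. The lists were chosen with earlier results of these data known, so the counts describe these lists and test no function. Signalling genes more often rose, 87 of 275 higher and 36 lower, with a median difference of 0.14. Chromatin genes rose for 61 of 200 and fell for 11 (median 0.14). Metabolic genes fell for 100 of 323 and rose for 25 (median −0.16). Surface genes moved both ways, 29 of 211 higher and 48 lower (median −0.04). The median over all genes was 0.00, and 7.42% of all genes were higher and 8.73% lower. All genes include dim ones, and the lists were not matched to them for level. The medians and counts of each class were taken at the deposited scaling only. In all, 397 of the 1008 passed, and 149 did so in the fit to all 23 arrays.

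**Figure D3:**
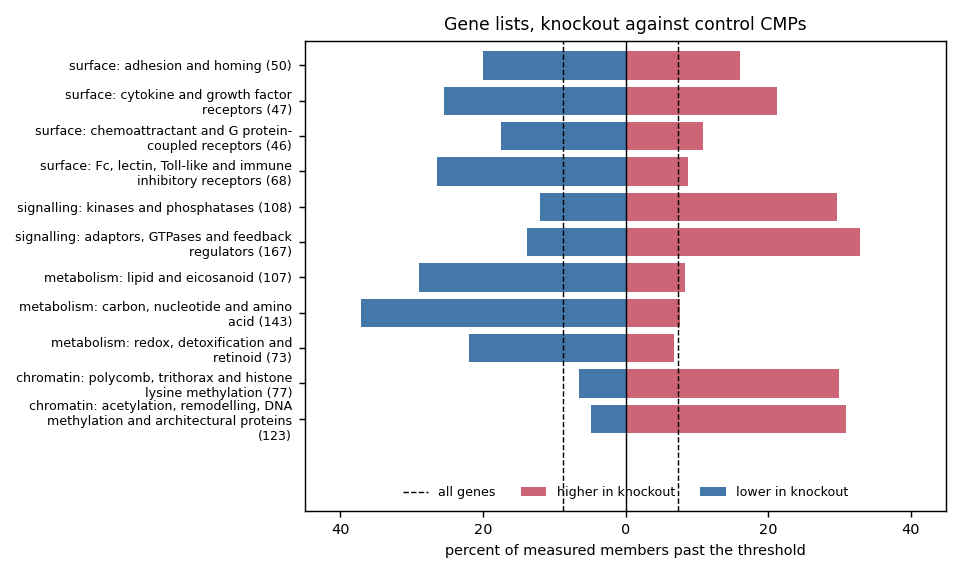
Percent of the measured members of each list (number in brackets) that were higher (red, right) or lower (blue, left) in knockout CMPs past the limma threshold. Dashed lines give the same for all genes, 7.42% higher and 8.73% lower; the signalling and chromatin bars reach farther to the right and the metabolic bars farther to the left.

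Receptors for cytokines and growth factors moved both ways: of 47 measured, 12 were lower (25.5%) and 10 higher (21.3%), with a median of −0.02. Beside this list and those below stand 8.73% lower and 7.42% higher over all genes. Among these receptors, 8 falls and 1 rise were large enough to be described. Ifngr2, the signalling chain of the interferon gamma receptor, read 8.51, 8.69, 8.38 and 8.71 in controls and 6.45, 6.41, 5.8 and 6.22 in the knockout, a difference of −2.35 ± 0.15 (log2 ± SE, 5.1-fold). Both chains of the IL-6 receptor fell. Il6st, the gp130 chain that IL-6 shares with related cytokines, went from 7.95, 8.26, 7.76 and 7.68 to 5.81, 5.83, 5.32 and 5.9 (−2.2 ± 0.17). Il6ra, the chain that binds IL-6, went from 7.4, 7.44, 7.37 and 7.53 to 5.9, 5.11, 5.59 and 5.47 (−1.92 ± 0.15). Knockout arrays lay more than 1 log2 below every control array for each of these 3 genes. The tumour necrosis factor receptors Tnfrsf1b (−1.14 ± 0.08) and Tnfrsf1a (−1.06 ± 0.12) and the G-CSF receptor Csf3r (−1.05 ± 0.08) fell by little more than 1. Flt3, a receptor tyrosine kinase of early progenitors, read 8.11, 8.38, 7.84 and 7.87 against 6.02, 7.0, 6.77 and 7.13, with knockout array 1 the lowest, and its adjusted p was 0.0138 (limma), 0.0551 with the Xist covariate and 0.385 in the fit to all arrays. Csf2rb, the shared beta chain of the receptors for GM-CSF, IL-3 and IL-5, read 8.37, 8.06, 8.03 and 8.57 against 7.6, 7.32, 6.29 and 6.15. Knockout arrays 1 and 2 lay nearest the controls, and the adjusted p of 0.0343 (limma) passed the threshold in 2 of the 8 fits that left out 1 array, reaching 0.0866 without control array 4. The rise was Il18r1, a chain of the IL-18 receptor, from 4.52, 4.4, 4.72 and 3.96 to 5.42, 5.87, 5.26 and 5.2 (1.04 ± 0.2), a dim gene on all arrays.

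Receptors coupled to G proteins split evenly among described genes, 3 lower and 3 higher, with 8 lower and 5 higher of 46 past the test. The neutrophil chemokine receptor Cxcr2 read 7.8, 7.62, 7.86 and 7.37 in controls and 4.55, 4.1, 4.07 and 4.6 in the knockout (−3.33 ± 0.17, 10.1-fold), where it lay close to the dim end of the scale. The acid-sensing receptor Gpr65 was even across controls (7.93, 7.86, 7.91 and 7.9) and lower in the knockout (6.28, 7.02, 6.44 and 7.04). The receptors of the lipid sphingosine-1-phosphate moved in opposite directions. S1pr3 went from 6.73, 6.69, 6.43 and 6.25 to 5.14, 5.57, 5.27 and 5.29 (−1.21 ± 0.14), while S1pr1, known for letting lymphocytes leave tissues, went from 6.56, 6.68, 6.46 and 5.7 to 7.4, 8.06, 7.74 and 7.63 (1.36 ± 0.24). The thrombin receptor F2r rose from 7.78, 7.99, 8.03 and 7.55 to 9.81, 9.47, 9.31 and 9.63 (1.71 ± 0.14, 3.28-fold). Cysltr2, a leukotriene receptor, rose by 1.27 ± 0.22 from a low level.

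Among lectins and other immune receptors more fell than rose, 18 of 68 lower and 6 higher with 44 not past the test (median −0.12), and there were 9 described falls and 3 described rises. Clec12a, an inhibitory lectin of myeloid cells, read 9.46, 8.89, 9.31 and 9.37 in controls and 6.41, 6.16, 6.81 and 6.05 in the knockout (−2.9 ± 0.19, 7.46-fold). The activating receptors Clec5a (5.37, 4.79, 5.03 and 6.51 against 3.5, 3.33, 3.45 and 3.17) and Trem1 (6.48, 5.21, 5.8 and 6.65 against 4.25, 4.14, 3.75 and 3.77) both signal through the adaptor DAP12, and their controls were spread more widely than their knockout arrays. Klrb1f (−1.93 ± 0.21), the mast cell inhibitory receptor Milr1 (−1.81 ± 0.2) and Cd300lb (−1.32 ± 0.07) also fell. Clec4e, the lectin Mincle that senses mycobacterial lipid and dead cells, rose against this direction, from 6.84, 6.59, 6.58 and 7.0 to 9.11, 9.38, 8.82 and 8.88 (2.29 ± 0.15, 4.9-fold). Cd244a, the 2B4 receptor of natural killer cells, rose by 1.02 ± 0.13. Lilr4b read 7.02, 6.54, 6.36 and 7.23 against 8.63, 8.73, 8.06 and 7.38, and knockout array 4 lay next to the controls. Its adjusted p was 0.0305 (limma), with 6 of the 8 fits that left out 1 array above the threshold (0.0795 without knockout array 1) and 0.0637 with the Xist covariate.

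Of 50 adhesion genes, 10 were lower and 8 higher, with a median of 0.00 and only 2 described members, both lower. Emb, embigin, which escorts lactate transporters to the membrane, was the second largest fall among described genes. It read 10.52, 10.38, 10.53 and 10.54 in controls and 7.51, 6.94, 7.23 and 6.95 in the knockout, a difference of −3.34 ± 0.13 (10.1-fold, adjusted p = 9.55e-05, limma). Itga1, a collagen-binding integrin chain, went from 5.36, 4.82, 5.17 and 5.6 to 3.85, 3.69, 3.9 and 3.86 (−1.41 ± 0.16).

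Among 108 kinases and phosphatases, 32 were higher and 13 lower in the knockout (median 0.14), with 7 described rises and 4 described falls. Pde3b, a phosphodiesterase that breaks down cyclic AMP, read 5.97, 6.08, 5.67 and 6.55 in controls and 8.48, 8.26, 8.12 and 7.45 in the knockout (2.01 ± 0.26, 4.03-fold). Knockout array 4 was the lowest of its group and still lay above every control array. The protein kinases C alpha and theta rose, Prkca from 6.23, 6.21, 6.09 and 5.93 to 7.84, 7.55, 7.44 and 7.19 (1.39 ± 0.14) and Prkcq by 1.15 ± 0.17. So did the lipid phosphatase Inpp4b (1.2 ± 0.16) and the MAP kinase phosphatases Dusp4 (1.19 ± 0.17) and Dusp10 (1.03 ± 0.12). Falls were smaller: Mapkapk3, a kinase downstream of p38, went from 8.77, 8.63, 8.79 and 8.82 to 7.73, 7.39, 7.51 and 7.36 (−1.26 ± 0.09), and Dusp22 (−1.12 ± 0.08), Dusp7 (−1.04 ± 0.12) and Sgk3 (−1.02 ± 0.1) followed.

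Adaptors, GTPases and feedback regulators had the largest share of rises of the 11 lists, 55 of 167 higher (32.9%) and 23 lower, with 16 described rises and 4 described falls. Phlda1, a pleckstrin-homology-like protein, read 6.43, 6.0, 6.46 and 6.78 in controls and 8.96, 9.13, 9.29 and 8.72 in the knockout (2.61 ± 0.19, 6.09-fold). Several of the rises were adaptors known from lymphocytes. Lat, the scaffold of the T cell receptor, went from 7.2, 7.05, 6.9 and 6.69 to 8.91, 8.92, 8.78 and 8.6 (1.84 ± 0.12). Lax1, a related membrane adaptor, went from 4.95, 4.86, 4.92 and 4.85 to 6.74, 7.11, 6.81 and 6.52 (1.9 ± 0.12), and Sla2, an adaptor that dampens antigen receptor signals, from 5.84, 5.98, 5.79 and 5.94 to 8.2, 7.8, 7.71 and 7.42 (1.9 ± 0.15). In these 3 genes the groups were separated by more than 1 log2 on every array. Id3, an inhibitor of E proteins (1.53 ± 0.25), and Rgs1, a brake on G protein signals (1.33 ± 0.15), rose too. Rassf4 (7.64, 7.52, 7.59 and 7.74 against 5.78, 5.94, 5.86 and 5.5, −1.85 ± 0.1), Themis2, an adaptor known from B cells (−1.3 ± 0.15), and Rasgrp2, an activator of Rap1 (−1.09 ± 0.13), fell. Trib1, a pseudokinase known for directing C/EBPα to degradation, read 7.16, 6.97, 7.05 and 8.0 in controls and 5.85, 6.36, 6.07 and 5.87 in the knockout (−1.26 ± 0.24).

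In each of 3 groups of metabolic genes more members fell than rose. The list of carbon, nucleotide and amino acid metabolism had 53 of 143 members lower (37.1%) and 11 higher, the lipid list 31 of 107 lower and 9 higher, and the redox list 16 of 73 lower and 5 higher. Glycolysis was represented by Hk3, the hexokinase of myeloid cells, at 7.32, 7.12, 7.83 and 7.6 in controls and 5.09, 4.86, 4.89 and 4.81 in the knockout (−2.55 ± 0.16, 5.87-fold), by Pfkp (7.2, 6.93, 6.96 and 7.63 against 5.88, 5.96, 5.9 and 6.08, −1.22 ± 0.16) and by Pgam1 (9.81, 9.59, 9.87 and 9.94 against 8.63, 8.59, 8.71 and 8.81, −1.12 ± 0.08). The cytosolic isocitrate dehydrogenase Idh1 went from 8.72, 8.51, 8.74 and 8.86 to 7.48, 7.36, 6.99 and 7.21 (−1.45 ± 0.12). Kmo, of tryptophan breakdown, fell by 1.59 and the mitochondrial adenylate kinase Ak4 by 1.55 on the log2 scale. Upp1, uridine phosphorylase, was the described rise of this list, from 4.29, 4.47, 4.41 and 4.2 to 5.73, 6.1, 5.43 and 5.4 (1.32 ± 0.16).

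No described gene of the lipid and eicosanoid list rose. Pld4, a lysosomal nuclease of the phospholipase D family, read 7.09, 6.92, 6.76 and 7.3 in controls and 4.74, 4.34, 4.45 and 4.3 in the knockout (−2.56 ± 0.14, 5.9-fold). Hexa, the lysosomal hexosaminidase A chain, was even within each group (9.15, 9.15, 9.31 and 9.36 against 7.83, 7.93, 7.81 and 7.88, −1.38 ± 0.06). Ptgs2, the inducible cyclooxygenase, fell by 1.03. In the redox list the microsomal glutathione transferase Mgst1 read 7.48, 6.88, 7.36 and 7.97 against 5.35, 5.95, 5.39 and 5.46 (−1.89 ± 0.24), and Ncf1, a subunit of the phagocyte oxidase, 7.55, 7.64, 7.52 and 7.83 against 6.19, 6.66, 6.09 and 6.05 (−1.39 ± 0.14). Gstm1 (−1.18 ± 0.19) and glutathione reductase Gsr (−1.04 ± 0.21) also fell. Weaker support stood behind 3 members. Mgst2 (−1.25 ± 0.29) lost its call in 6 of 8 fits that left out 1 array (0.0749 without control array 4) and had adjusted p = 0.0517 with the Xist covariate (limma). Metallothionein Mt1 (−1.02 ± 0.22) lost it in 3 of 8 (0.0549 without knockout array 1) and had 0.0562 with the covariate. Cyp11a1 (1.24 ± 0.31), the enzyme that opens steroid synthesis, lost its rise in 7 of 8 (0.0888 without knockout array 2) and had 0.106 with the covariate.

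More chromatin genes rose than fell, and most did not pass. Of 77 polycomb, trithorax and histone methylation genes 23 rose, 5 fell and 49 did not pass, and of 123 genes of acetylation, remodelling, DNA methylation and architecture 38 rose, 6 fell and 79 did not pass. All 6 described members were higher in the knockout. After Tox (3.5 ± 0.18, 11.3-fold), the largest was the zinc finger repressor Zbtb10, from 7.38, 6.97, 6.97 and 7.38 to 9.47, 9.14, 9.59 and 9.15 (2.16 ± 0.15, 4.48-fold). Kdm6b, which removes the polycomb mark from histone H3, went from 6.92, 6.92, 6.83 and 7.13 to 8.74, 8.48, 8.49 and 8.22 (1.53 ± 0.11). Gadd45b, linked to stress and DNA demethylation, read 6.22, 6.18, 6.75 and 7.08 against 8.15, 8.06, 7.67 and 7.93 (1.39 ± 0.22). The architectural protein Hmga2, a gene of fetal stem cells, went from 5.67, 5.95, 6.17 and 5.7 to 6.88, 7.14, 7.22 and 7.18 (1.23 ± 0.13), and Zbtb20 rose by 1.03 ± 0.15. Most chromatin genes that passed moved by less than 1 log2, since 61 rose and 6 were large enough to be described.

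**Figure D4:**
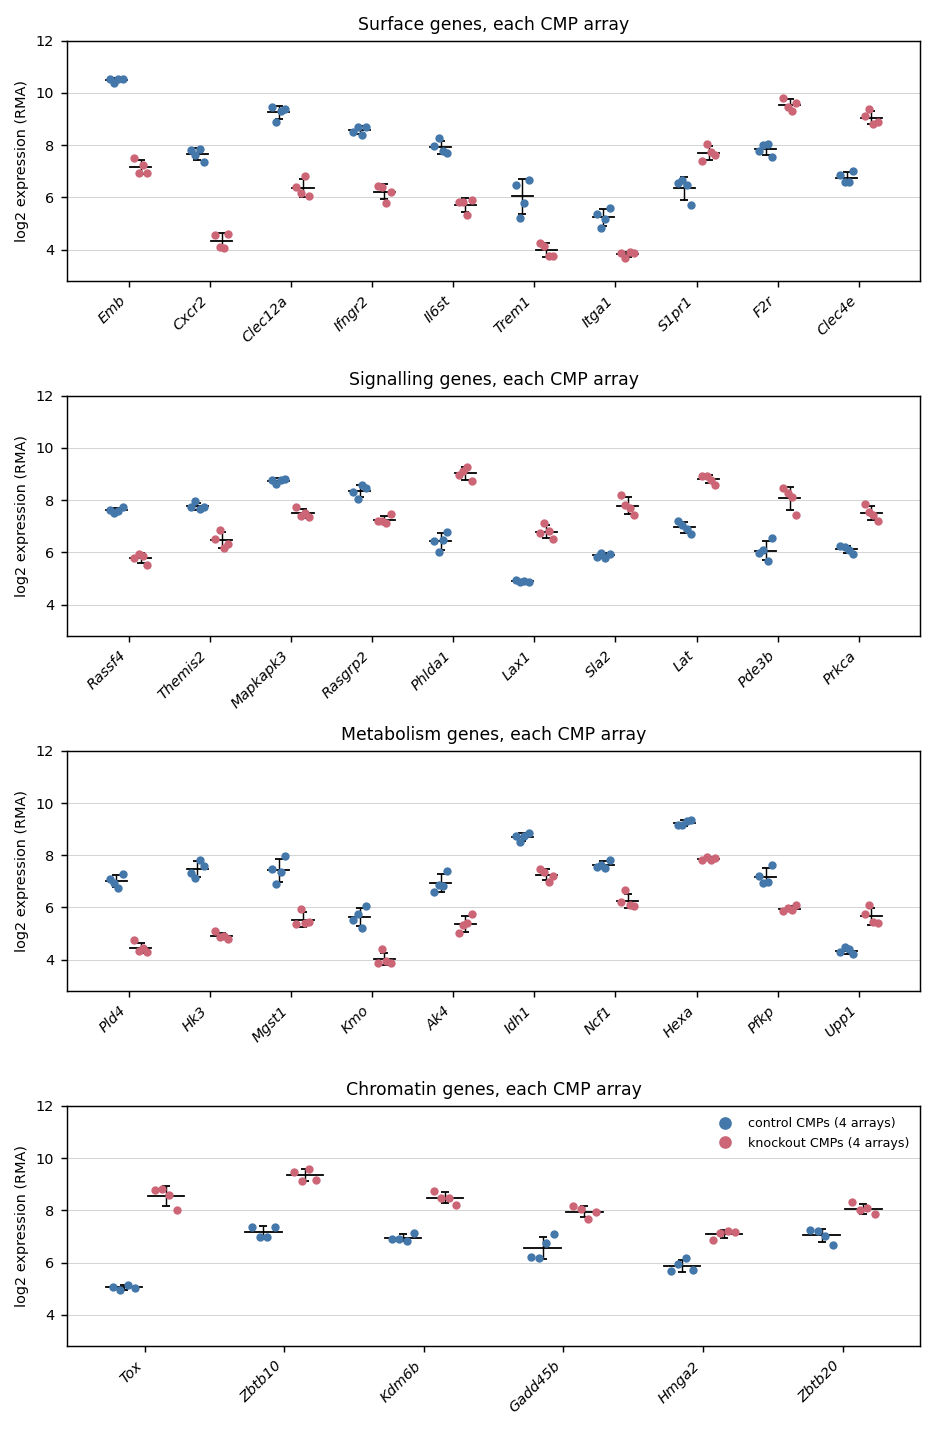
Log2 expression (RMA, vertical axis) of surface, signalling, metabolic and chromatin genes on each of the 4 control (blue) and 4 knockout (red) CMP arrays, with mean and SD as black lines (n = 4). The genes shown were picked from the described genes, so the lack of overlap and the mix of directions in each panel follow from that choice.

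Promoters of described genes were read for TTGCNNAA, letters that C/EBP proteins are known to bind, on both strands in the 250 bases before the start (RefSeq, GRCm38.p6). Of the 317 genes, 243 matched an entry. The letters stood before 16 of 148 genes that fell (10.8%), 12 of 95 that rose (12.6%), and 2930 of all 27025 genes in the table (10.8%), so described genes held them about as often as genes at large. They are shown for the 3 falls and 3 rises of largest size among named genes that hold them, 5′ to 3′ along the gene, with the matching letters in capitals. A match is a description of the letters and not of binding. The stretches are chr6:129349994-129350243 (plus strand) for Clec12a, chr6:138140277-138140526 (plus) for Mgst1, chr4:101419039-101419288 (plus) for Ak4, chr6:123289872-123290121 (minus) for Clec4e, chr9:58014702-58014951 (plus) for Cyp11a1 and chr1:171558943-171559192 (plus) for Cd244a.
Clec12a: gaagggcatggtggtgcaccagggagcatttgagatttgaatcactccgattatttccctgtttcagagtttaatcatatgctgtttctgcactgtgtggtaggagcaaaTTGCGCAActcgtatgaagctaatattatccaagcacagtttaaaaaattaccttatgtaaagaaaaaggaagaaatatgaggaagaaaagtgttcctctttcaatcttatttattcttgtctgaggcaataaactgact
Mgst1: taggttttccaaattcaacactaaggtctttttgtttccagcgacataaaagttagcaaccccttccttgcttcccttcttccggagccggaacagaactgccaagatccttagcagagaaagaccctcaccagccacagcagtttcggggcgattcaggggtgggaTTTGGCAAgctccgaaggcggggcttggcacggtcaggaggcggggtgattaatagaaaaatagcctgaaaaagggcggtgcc
Ak4: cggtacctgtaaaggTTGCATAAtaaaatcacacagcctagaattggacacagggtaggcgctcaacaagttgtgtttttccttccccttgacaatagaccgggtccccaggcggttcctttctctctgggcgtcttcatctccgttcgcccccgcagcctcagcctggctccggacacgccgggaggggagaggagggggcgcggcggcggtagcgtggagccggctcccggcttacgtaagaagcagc
Clec4e: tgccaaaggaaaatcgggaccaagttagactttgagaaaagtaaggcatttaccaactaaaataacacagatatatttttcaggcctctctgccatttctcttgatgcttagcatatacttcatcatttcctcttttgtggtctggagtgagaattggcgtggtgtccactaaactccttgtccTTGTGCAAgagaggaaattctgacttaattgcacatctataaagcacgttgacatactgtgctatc
Cyp11a1: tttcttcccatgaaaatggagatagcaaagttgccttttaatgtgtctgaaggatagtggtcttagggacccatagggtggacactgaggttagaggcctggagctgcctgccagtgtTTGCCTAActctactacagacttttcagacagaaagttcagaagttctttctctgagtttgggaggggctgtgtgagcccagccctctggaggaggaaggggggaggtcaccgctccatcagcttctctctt
Cd244a: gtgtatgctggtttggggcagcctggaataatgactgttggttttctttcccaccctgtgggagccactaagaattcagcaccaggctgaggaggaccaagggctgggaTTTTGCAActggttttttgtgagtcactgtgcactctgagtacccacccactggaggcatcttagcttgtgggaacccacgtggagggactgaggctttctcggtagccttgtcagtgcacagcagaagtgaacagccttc

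These windows belong to genes of both directions. The match of Clec12a begins 140 bases before the start and is the full palindrome, and that of Clec4e begins 66 bases before it. Clec12a fell by 2.9 and Clec4e rose by 2.29 on the log2 scale, although both encode lectin receptors on chromosome 6.

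The largest falls outside the functional lists included secreted and vesicle proteins of myeloid cells. Anxa3, a membrane-binding annexin of neutrophils, was the largest once the granule and monocyte genes were set aside, at 8.42, 7.73, 8.76 and 8.71 in controls and 4.99, 4.24, 4.85 and 4.31 in the knockout (−3.81 ± 0.28, 14-fold). Met, the receptor of hepatocyte growth factor, read 7.04, 6.89, 6.47 and 7.13 against 3.78, 3.38, 3.56 and 3.66 (−3.29 ± 0.16), where it lay near the floor of 3. Tfec, a transcription factor of the MITF family known from macrophages, read 8.99, 8.5, 9.21 and 8.99 against 5.88, 5.41, 5.72 and 5.67 (−3.25 ± 0.16). Tifab (−3.1 ± 0.14), a relative of the TRAF-interacting protein TIFA, Lbp, the lipopolysaccharide-binding protein (−3.07 ± 0.17), and Abcd2, a peroxisomal fatty acid transporter (−2.97 ± 0.18), followed. Igsf6 (−2.72 ± 0.25), heparanase Hpse (−2.71 ± 0.1), cathepsin H, Ctsh (−2.62 ± 0.22), and the chemokine Ccl9 (−2.61 ± 0.32) completed them with 2 genes of other lineages given below.

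The largest rises outside the lists were headed by Scin, scinderin, which severs actin filaments, at 6.56, 5.67, 5.86 and 5.94 in controls and 9.82, 9.01, 9.32 and 9.04 in the knockout (3.29 ± 0.25, 9.78-fold). The chemokine Ccl5 read 7.01, 6.79, 7.29 and 6.71 against 8.92, 9.76, 9.19 and 8.7 (2.19 ± 0.24). Ctsw, a cathepsin of cytotoxic cells, read 4.9, 4.75, 5.13 and 4.98 against 7.21, 7.13, 6.85 and 6.41 (1.96 ± 0.18). The protease inhibitors Ctla2b (2.16 ± 0.14) and Ctla2a (1.9 ± 0.08) are near copies of each other, so their probe sets may share signal. Smim3, a small membrane protein, rose by 1.85 ± 0.12. Gzmb, granzyme B, spread widely, at 8.28, 6.21, 7.23 and 7.59 in controls and 10.82, 9.66, 9.52 and 8.58 in the knockout. Its adjusted p of 0.0342 (limma) rose above the threshold in 6 of 8 fits that left out 1 array (0.0791 without control array 3), and was 0.123 with the Xist covariate and 0.191 in the fit to all arrays.

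Grouped by role after their values were seen, and so with no test, some groups of described genes lay in 1 direction and others were mixed. Transcription and chromatin regulators on no functional list had 13 higher and 6 lower, receptors for growth factors, guidance cues and matrix 5 higher and 6 lower, and secreted chemokines, growth factors and inhibitors 4 higher and 9 lower. All 21 genes assigned to T and natural killer cells were higher, among them Cd96 (1.63), Lag3 (1.24), Gzmc (1.79) and the GTPases Gimap6 (1.63), Gimap5 (1.36) and Gimap1 (1.21). The assignment did not include Klrb1f, a killer cell lectin-like receptor that fell (−1.93), so the single direction depends on how members were assigned. Gzmc lost its call in 7 of 8 fits that left out 1 array (up to 0.0913 without control array 4, limma) and with the Xist covariate (0.136). Of the 8 Gimap genes measured, 6 rose, with a median of 0.85, where 7.42% of all genes were higher. All 8 lie on chromosome 6, and the family was picked after its values were seen. The annexins, also counted as a family, had 1 of 12 higher and 5 lower (median −0.08). Gimap1, Gimap5 and Gimap6 also passed with all 23 arrays, with the Xist covariate and without any 1 array. Gimap7 lost its call in 7 of 8 fits that left out 1 array (adjusted p up to 0.0932 without knockout array 3, limma), Gimap8 with the covariate (0.0614) and Gimap9 with all arrays (0.0886). All 11 cathepsin and lysosomal genes were lower, including the Toll-like receptor chaperone Unc93b1 (−1.97) and Scpep1 (−1.73). Genes of protein folding and glycosylation in the secretory pathway were lower for 14 of 15, such as Nucb2 (−2.13), Plod3 (−1.31) and Sdf2l1 (−1.17), with the sialyltransferase St8sia6 (1.78) as the exception. Of 15 further enzymes 12 were lower, led by Alas1 (−2.31), the first enzyme of haem synthesis. The described NF-kB genes Rel (1.29), Nfkbiz (1.25), Relb (1.08) and Nfkbie (1.07), and the TGF-beta feedback genes Skil (1.76), Klf10 (1.65) and Smad7 (1.14), were all higher. These role groups hold described genes only, so family members that changed less are not counted in them. For 135 described genes, 56 higher and 79 lower, no functional list or role was assigned.

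Markers of the cell types that a CMP sort could hold were read beside these genes. Over all genes 7.42% were higher and 8.73% lower, and the mature lymphocyte markers stood near that, at 7.14% each way. Of 14 markers of mature B, T and natural killer cells 1 rose and 1 fell. Their mean log2 level per array was 4.74 to 4.87 in controls and 4.79 to 4.9 in the knockout. The T cell receptor chain Cd3e stood at 5.09, 5.28, 5.38 and 5.22 in controls and 5.23, 4.81, 5.2 and 5.01 in the knockout, and Ncr1, of natural killer cells, at 3.64, 3.36, 3.41 and 3.17 and 3.97, 4.03, 3.66 and 3.55. The members that passed were Gzma (0.32 ± 0.09, dim on all arrays) and Cd79b (−0.64 ± 0.11), of B cells. Gzma lost its call in 7 of 8 fits that left out 1 array (up to 0.0996 without control array 3, limma), with the Xist covariate (0.156) and with all arrays (0.993), and Cd79b with all arrays (0.053). Mast cell and basophil markers moved both ways, 2 of 12 higher and 3 lower. The basophil protease Mcpt8 read 9.0, 7.9, 8.57 and 8.74 against 6.35, 5.31, 5.24 and 4.36 (−3.24 ± 0.43) and the histamine-forming enzyme Hdc fell by 2.54, while mast cell carboxypeptidase Cpa3 read 10.1, 9.25, 9.71 and 9.7 against 11.03, 10.95, 10.8 and 10.79 (1.2 ± 0.17). Ms4a2 also fell (−1.99 ± 0.29), and the other rise was Gzmb, with the weak support given above. In the fit to all arrays the adjusted p (limma) was 0.122 for Mcpt8, 0.16 for Hdc, 0.428 for Ms4a2 and 0.476 for Cpa3. The list's mean level was 6.21 to 6.89 in controls and 5.62 to 6.47 in the knockout. Of 7 eosinophil markers 2 fell, Prg2, the eosinophil major basic protein (8.11, 6.28, 6.02 and 8.04 against 3.97, 4.48, 4.51 and 4.48), and eosinophil peroxidase Epx (−0.8 ± 0.19), with a list mean of 4.87 to 5.43 in controls and 4.5 to 4.59 in the knockout. Epx lost its call in 4 of 8 fits that left out 1 array (up to 0.0784 without knockout array 3, limma) and with the Xist covariate (0.0913). The part of these cells in the described differences was not tested.

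Beside 7.42% higher and 8.73% lower over all genes, stem cell markers rose for 3 of 12 (25%) and fell for 1 (8.33%). Their list mean was 5.79 to 6.09 in controls and 6.02 to 6.19 in the knockout. In lists of 10 to 18 members a single call moves the share widely, so counts of 1 or 2 are not read as a change of a cell type. Angpt1, a ligand of stem cells, read 9.14, 9.27, 8.91 and 8.66 against 10.63, 10.33, 10.48 and 10.41 (1.47 ± 0.14), Meis1 rose by 0.93 ± 0.14 and Slamf1 by 0.89 ± 0.22. The fall was Mecom, a dim gene, from 4.67, 5.11, 4.83 and 4.71 to 4.13, 4.24, 4.22 and 4.29 (−0.61 ± 0.1). The other 8 stem cell markers did not pass. In the fit to all arrays Meis1 (adjusted p = 0.722, limma), Slamf1 (0.506) and Mecom (0.923) did not pass. Slamf1 lost its call in 6 of 8 fits that left out 1 array (up to 0.0818 without knockout array 2), and Mecom in none. Megakaryocyte markers rose for 3 of 10 (median 0.40), with Itga2b, the platelet integrin, at 7.35, 7.21, 7.52 and 7.29 and 8.44, 7.84, 8.19 and 8.04 and Gp9 higher by 0.73 ± 0.17, and their mean was 6.96 to 7.25 in controls and 7.13 to 7.84 in the knockout. Ppbp (0.59 ± 0.32) did not pass. None of the 3 rises passed in the fit to all arrays (limma adjusted p = 0.408 for Itga2b, 0.513 for Gp9 and 0.102 for Rap1b). Gp9 lost its call in 4 of 8 fits that left out 1 array (up to 0.0643 without control array 1) and Rap1b in 3 (up to 0.0633 without knockout array 3). Erythroid markers fell for 2 of 13, at a mean of 6.99 to 7.79 and 6.85 to 7.47. Sphk1 (−0.83 ± 0.23) and Tfrc (−0.71 ± 0.19) passed, each losing its call in 7 of 8 fits that left out 1 array, with the Xist covariate (limma adjusted p = 0.163 and 0.0961) and with all arrays (0.178 and 0.561). Rhag (−1.49 ± 0.56) and Ermap (−0.92 ± 0.36) did not. Lymphoid progenitor markers had 1 of 10 higher, Il7r (0.88 ± 0.21), and 2 lower, including Flt3, at a mean of 5.52 to 5.88 and 5.61 to 6.05, and Dntt (1.57 ± 0.54) did not pass. Il7r lost its call in 6 of 8 fits that left out 1 array (up to 0.0725 without knockout array 3, limma), with the Xist covariate (0.0963) and with all arrays (0.826). Dendritic cell markers fell for 2 of 12, at a mean of 5.89 to 6.43 and 5.56 to 5.8, with H2-Aa (−1.38 ± 0.48) and Cd74 (−1.02 ± 0.5) not past the threshold. Stromal markers rose for 2 of 13, Pdgfrb (1.02 ± 0.17) and Sparc (0.43 ± 0.11), at a mean of 4.78 to 4.86 and 4.92 to 4.97, and Vcam1 differed by 0.15 ± 0.17, which did not pass. Sparc lost its call in 7 of 8 fits that left out 1 array (up to 0.0858 without control array 4, limma) and Pdgfrb with all arrays (0.126). Markers of the GMP gate and its regulators fell for 11 of 18 and rose for 1 (median −0.51). Their mean was 7.81 to 7.96 in controls and 6.91 to 7.18 in the knockout, in a list that holds the deleted gene, the markers Csf1r and Irf8 and genes of the sort. The part of these markers in the described differences was not tested.

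Control GMPs give the levels of these genes one step further along the normal path. Any contrast with CMPs would use the same control arrays, so levels are given side by side without a test. Emb read 10.47 to 10.82 on the 3 GMP arrays, beside 10.38 to 10.54 in control CMPs. Clec12a stood at 9.95 to 10.35, Anxa3 at 9.26 to 9.67 and Tfec at 9.9 to 10.06, each above all control CMP arrays. Cxcr2 lay at 6.64 to 6.87 in GMPs, below control CMPs and above knockout CMPs. Of the genes higher in knockout CMPs, Tox stood at 4.82 to 5.12 in GMPs, Phlda1 at 5.24 to 5.51, Lat at 5.65 to 6.23 and Ctla2a at 5.67 to 6.3. For each of these 4 genes the GMP arrays lay below all knockout CMP arrays.

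L-GMPs offered levels from arrays that had no part in choosing the genes, although their fit shares each gene's residual variance with the CMP arrays, so its calls are not fully independent of that choice. Of the 133 genes higher in knockout CMPs, 11 were higher and 2 lower in knockout than in control L-GMPs (limma across all 23 arrays, Benjamini-Hochberg adjusted), where 2.1% of all genes were higher and 1.16% lower. Of the 184 genes lower in knockout CMPs, 4 were also lower in knockout L-GMPs, Cebpa (−2.71 ± 0.19), Clec7a (−1.15 ± 0.22), Cyp39a1 (−0.96 ± 0.21) and Ifitm7 (−0.92 ± 0.24), while 13 were higher. The median difference in L-GMPs was 0.10 for the rises and 0.07 for the falls, against 0.00 for all genes. Since the knockout arrays come from 1 leukaemia, these p-values are too small for a statement on knockout leukaemias in general. The counts moved without primary control L-GMP array 1: 7 rises were then called lower, 25 falls higher and 8 falls lower. Falls called lower numbered 2 when secondary control array 2, secondary knockout array 1 or secondary knockout array 2 was left out, and 1 rise was called lower when the genes were taken from the fit of all 23 arrays.

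Pde3b and Zbtb10 were higher without C/EBPα in both settings. Pde3b read 10.4 to 10.97 in knockout and 4.97 to 8.33 in control L-GMPs (4.34 ± 0.72), and Zbtb10 read 7.56 to 8.07 against 6.17 to 7.31 (1.08 ± 0.22). Pcdh7, a protocadherin, had the largest difference among the rises called in L-GMPs (5.59 ± 0.19, after 1.6 ± 0.18 in CMPs). Other falls of CMPs were higher in knockout L-GMPs: Ak4 (3.81 ± 0.5), the proton channel Hvcn1 (2.55 ± 0.38), the gluconeogenic enzyme Fbp1 (2.18 ± 0.32) and Hpse (2.11 ± 0.22). Cpa3, higher in knockout CMPs, was lower in knockout L-GMPs (−4.74 ± 0.77). Many large differences of CMPs were not seen in L-GMPs past the test. Emb read 10.37 to 10.91 in knockout and 9.27 to 11.05 in control L-GMPs, and Clec12a 10.39 to 10.64 against 10.53 to 10.82. Tox read 5.38 to 5.54 against 5.26 to 6.12, far below its level in knockout CMPs. Cxcr2 and Met were dim in both kinds of L-GMPs, with no array above 5.07 and 4.22.

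**Figure D5:**
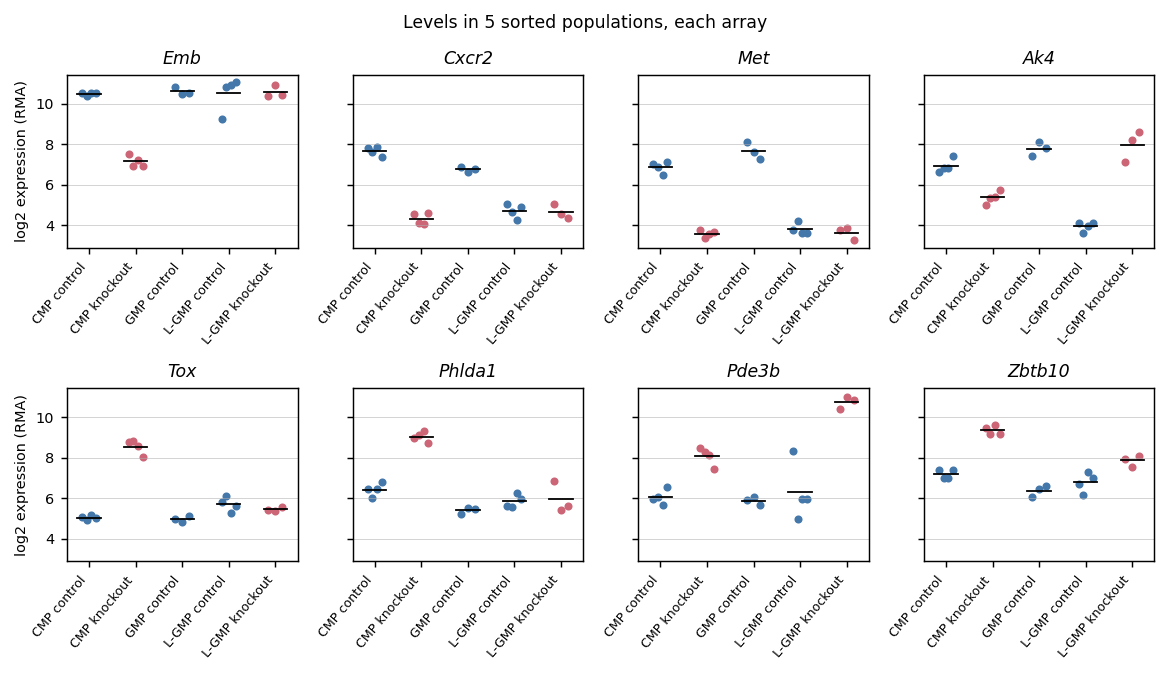
Log2 expression (RMA, vertical axis) of 8 described genes on each array of control and knockout CMPs (4 each), control GMPs (3), control L-GMPs (4) and knockout L-GMPs (3, from 1 leukaemia); blue is control, red is knockout and lines are means. Of these 5 populations Emb is low in knockout CMPs, Tox and Phlda1 are highest there, and Pde3b is high in knockout CMPs and higher in knockout L-GMPs.

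Knockout CMPs carrying MLL-AF9 in mice without leukaemia lay close to knockout CMPs for some of these genes. Anxa3 stood at 4.13 to 4.26 on their 3 arrays, Emb at 6.09 to 7.63, Hk3 at 4.44 to 5.13 and Ctla2a at 10.16 to 10.67, each apart from the range of control CMPs. Tox spread from 5.94 to 9.03 and Clec4e from 6.59 to 9.35. These cells were also transduced, transplanted and sorted in another experiment, so their levels are a description only.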

How the data were processed

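RNA of 23 sorted samples was amplified (NuGen Ovation Pico system) and hybridised to Affymetrix arrays, per the labels' protocols. The deposited log2 values had been produced by RMA, per the submitters' processing notes. RMA equalises arrays and compresses changes of dim genes, and the log2 values have a floor of 3. The labels describe a culture with cytokines before infection, and whether it applies to the 8 CMP arrays is not stated. Of 34760 probe sets, 21640 carried 1 symbol, and the brightest per gene left 19937 genes. How few the arrays are sets the precision.

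Groups came from the labels. CMPs were fitted with limma 3.58.1 in R 4.3.3 on their 8 arrays (group means, trend in the prior variance, Benjamini-Hochberg adjustment over all genes, threshold 0.05), and L-GMPs over all 23 arrays, with equal weight for primary and secondary groups. On simulated data for the CMP comparison (19937 genes, 200 changed), 89.5% of differences of 1 log2 and 99.5% of 2 log2 were recovered, and 6.28% and 2.93% of calls were false. The simulated noise was independent between genes, without a sex difference between the groups, and fewer genes changed than the 3220 called in the data. These rates are therefore not those of the real comparison. Named genes are the markers, the 15 largest rises and falls, up to 6 described members per functional list and direction, and up to 3 per marker list. Genes named for a role, the limit of 1 log2, the sort, the rest of a marker list or an L-GMP call were picked after their values were seen. The members and lists were chosen with earlier results of these data known. Alternatives were 1 fit of all arrays, array weights, Xist as a covariate, a replicate block, other scalings, no dim genes, no trend, probe set means and leaving out each array. Within-sex differences were added after seeing the data.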

Additional observations from a re-analysis of the deposited data

Results flagged for a closer look

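Single arrays that stood apart from the other 3 of their group were looked for among the 112 named genes in 224 groups of 4 arrays, where chance alone flags about 5% of groups. The measure is the gap to the nearest array as a share of the group's range, and 13 groups were above Dixon's critical value. Among control CMPs these were Csf1r (0.932, array 3 at 8.11 and the others at 8.31 to 8.33), Emb (0.913, array 2 at 10.38), Cd300lb (0.865, array 2 at 5.62), Il7r (0.856, array 4 at 3.59), Pdgfrb (0.839, array 2 at 6.44), Ppbp (0.839, array 2 at 4.44) and Hpse (0.838, array 4 at 7.43). Among knockout CMPs they were Sparc (0.94, array 4 at 5.55), Prg2 (0.935, array 1 at 3.97), Lbp (0.909, array 1 at 6.19 and the others at 5.45 to 5.52), Ctla2b (0.858, array 1 at 9.27), Il6st (0.856, array 3 at 5.32) and Irf8 (0.84, array 1 at 5.83). For several of these the gap itself was under 0.5 log2.

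For 11 of the 112 named genes, every knockout array lay to one side of the controls in CMPs and to the opposite side in L-GMPs. Lower in knockout CMPs and higher in knockout L-GMPs were Ak4 (difference in L-GMPs 3.81), Hpse (2.11), Gpr65 (1.39), Clec5a (1.38), Pfkp (0.79), Cd79b (0.49), Ifngr2 (0.44) and Sgk3 (0.38). Higher in knockout CMPs and lower in knockout L-GMPs were Lilr4b (−1.36), Pdgfrb (−1.21) and Hmga2 (−0.67). Of the 11, only Ak4, Hpse and Clec5a passed the limma test in L-GMPs. How many of all genes reverse in this way was not counted, nor how many named genes kept their side. Genes outside the 112 also reversed in this way, such as Cpa3 (−4.74), Hvcn1 (2.55) and Fbp1 (2.18). The difference between the settings was not tested, since the CMP values chose most of these genes and the knockout L-GMPs stand for 1 leukaemia.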

How the results depend on the processing

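In CMPs no named gene changed direction under the alternatives tried. Most named genes were chosen for arrays that did not overlap, so leaving out or reweighting arrays could not reverse them. Of 112 named genes, 83 kept their side of the threshold in the fit to all 23 arrays and 101 with the Xist covariate, 111 with array weights, 110 after quantile normalization, 107 with arrays centred on their medians and 112 with probe set means. The count of genes that differed between knockout and control CMPs was 979 (453 higher, 526 lower) with all 23 arrays and 1859 (867 higher, 992 lower) with high Xist as a covariate. Members of the functional lists that passed numbered 149 with all arrays. The median absolute residual was 0.15 to 0.161 in MLL-AF9 CMPs, KSL cells and primary control L-GMPs, and 0.0762 and 0.0745 in control and knockout CMPs. Secondary control L-GMPs had 0.0942, and secondary knockout L-GMPs, at 0.0776, were close to the CMPs. The cause of the smaller count with the covariate was not tested. Leaving out 1 CMP array at a time gave 2231 to 2939 genes, 1025 to 1358 higher and 1185 to 1581 lower, 115 to 159 described rises, 169 to 199 described falls and 301 to 367 functional list members. In L-GMPs, leaving out 1 array gave 8 to 15 rises of CMPs called higher and 2 to 7 lower, and 11 to 25 falls called higher and 2 to 8 lower, with 1 rise lower when genes came from the fit of all arrays. With the replicate number as a block (replicate block), 2220 genes passed and 302 of the 317 described genes did. The deviations of same-numbered arrays correlated at 0.077, 0.063, −0.004 and −0.205. Arrays with different numbers were not compared in this way, so the check cannot exclude that the samples were paired.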
